A study of Homo sapiens with 3 samples.

Results

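Peaks of the acetyltransferase EP300 at the promoters of antisense RNA genes were examined in H9 cells, an established human embryonic stem cell line, held in the naive state. A peak was taken as a member when the authors' annotation placed it within 3 kb of a transcript start and gave it a gene whose symbol ends in -AS, with or without a number. Such peaks numbered 518 of 31239 promoter peaks and of 65276 peaks in all in EP300 replicate 1. In replicate 2 they numbered 551 of 31165 promoter peaks and of 64896 peaks. They carried the names of 370 antisense genes in replicate 1 and of 380 in replicate 2. The 2 EP300 samples are wild-type H9 cells grown in PXGL conditions, which combine the inhibitors PD0325901, XAV939 and Gö 6983 with human LIF at 10 ng/mL, over a layer of mouse embryonic fibroblasts. An input sample of the same cells, taken without antibody, completes the series and was not analysed here on its own. There is 1 condition and no contrast between groups. The labels do not state whether the replicates are independent cultures, and their differences may be technical only.

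An antisense RNA gene is transcribed from the strand opposite to another gene, called here the sense gene, and is named after it: FOXD3-AS1 is antisense to FOXD3. Some antisense genes begin beside the start of the sense gene and run away from it, some begin inside it, and others begin past its end and run back toward it. EP300 is a transcriptional co-activator that acetylates histones, and it is found at active promoters and enhancers. A peak therefore shows where EP300 was recovered and does not measure the RNA of either gene.

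RefSeq promoter windows of GRCh38.p14 show what annotated starts of these antisense genes look like. Each window runs from 250 bases before to 50 bases after a start and is written 5′ to 3′ on the strand of the antisense gene. Capitals mark matches to any of 16 motifs, searched on both strands, and a base may belong to more than 1 match. Of the 275 antisense genes with overlapping members in both replicates, 201 had a window, and in 61 of these at least 150 bases of the window lay inside the strongest member in both replicates. The 6 windows below were chosen for contrast: ZNF22-AS1 (chr10:45000754-45001053, minus strand) and SPART-AS1 (chr13:36346181-36346480, plus strand) begin beside a RefSeq start of the sense gene, AGBL5-AS1 (chr2:27050215-27050514, minus strand) begins upstream of it, ARHGAP31-AS1 (chr3:119322711-119323010, minus strand) begins inside it, SNX10-AS1 (chr7:26376220-26376519, minus strand) begins beyond its end, and OTX2-AS1 (chr14:56812908-56813207, plus strand) has its peaks beside the window.
ZNF22-AS1: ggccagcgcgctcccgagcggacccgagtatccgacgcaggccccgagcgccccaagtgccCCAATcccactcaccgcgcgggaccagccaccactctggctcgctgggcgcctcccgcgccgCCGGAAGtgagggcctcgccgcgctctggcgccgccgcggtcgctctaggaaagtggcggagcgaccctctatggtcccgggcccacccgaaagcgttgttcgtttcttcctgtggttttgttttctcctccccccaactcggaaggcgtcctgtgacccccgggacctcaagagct
SPART-AS1: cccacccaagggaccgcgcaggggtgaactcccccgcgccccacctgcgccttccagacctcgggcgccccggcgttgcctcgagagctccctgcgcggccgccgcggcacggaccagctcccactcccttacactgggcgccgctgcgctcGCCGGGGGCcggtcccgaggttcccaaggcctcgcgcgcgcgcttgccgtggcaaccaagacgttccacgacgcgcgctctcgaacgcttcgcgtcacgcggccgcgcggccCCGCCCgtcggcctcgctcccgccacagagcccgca
AGBL5-AS1: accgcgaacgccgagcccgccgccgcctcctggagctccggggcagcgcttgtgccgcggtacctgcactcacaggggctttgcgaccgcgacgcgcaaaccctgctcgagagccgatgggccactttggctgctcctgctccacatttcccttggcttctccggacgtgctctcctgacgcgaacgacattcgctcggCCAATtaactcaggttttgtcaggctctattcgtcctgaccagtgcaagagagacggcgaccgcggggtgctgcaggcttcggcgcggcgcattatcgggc
ARHGAP31-AS1: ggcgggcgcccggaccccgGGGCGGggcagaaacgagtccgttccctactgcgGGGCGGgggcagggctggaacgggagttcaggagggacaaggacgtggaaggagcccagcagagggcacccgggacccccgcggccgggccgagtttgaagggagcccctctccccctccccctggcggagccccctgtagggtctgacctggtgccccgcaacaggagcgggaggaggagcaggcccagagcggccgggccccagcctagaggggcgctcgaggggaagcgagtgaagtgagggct
SNX10-AS1: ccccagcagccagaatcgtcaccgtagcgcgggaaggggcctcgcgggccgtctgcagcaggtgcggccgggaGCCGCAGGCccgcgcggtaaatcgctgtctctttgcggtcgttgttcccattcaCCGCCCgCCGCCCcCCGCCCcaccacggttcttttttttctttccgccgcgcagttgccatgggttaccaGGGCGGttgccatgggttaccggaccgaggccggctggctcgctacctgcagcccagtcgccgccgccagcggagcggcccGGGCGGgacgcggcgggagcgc
OTX2-AS1: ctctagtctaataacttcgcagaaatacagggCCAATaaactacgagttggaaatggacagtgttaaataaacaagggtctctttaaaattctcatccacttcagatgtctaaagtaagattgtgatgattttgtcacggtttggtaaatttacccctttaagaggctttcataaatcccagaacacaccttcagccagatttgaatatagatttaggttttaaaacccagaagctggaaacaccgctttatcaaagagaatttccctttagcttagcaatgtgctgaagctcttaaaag

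The first 5 windows lie inside strong peaks and are rich in G and C. Their G and C share was 69.7% for ZNF22-AS1, 76.7% for SPART-AS1, 65.3% for AGBL5-AS1, 73.7% for ARHGAP31-AS1 and 71.7% for SNX10-AS1. The share was 36.7% in the OTX2-AS1 window. The ratio of observed to expected CpG, which is near 1 where CpG has not been depleted, was 0.983 for ZNF22-AS1, 1.16 for SPART-AS1, 1.10 for AGBL5-AS1 and 1.04 for SNX10-AS1. ARHGAP31-AS1, at 0.605, and OTX2-AS1, at 0.397, were lower. The SNX10-AS1 window holds 5 GC boxes (GGGCGG), the ARHGAP31-AS1 window 2, and the AGBL5-AS1 window none, so no motif of the list stood in all 5 of these windows.

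Over all 201 windows the median CpG ratio was 0.552 (95% interval of the median 0.444 to 0.628), against 0.464 for 1741 windows of all annotated antisense genes, 0.738 for coding genes and 0.580 for all 34961 windows. The 61 windows inside the member peaks had a median of 0.763, and the 140 windows outside them 0.435. Where antisense and sense gene began within 1 kb of each other on opposite strands the median was 0.808 (n = 23). The 694 windows of annotated antisense genes with no peak near them in both replicates had a median of 0.215. The windows of genes with members were thus richer in CpG than those of antisense genes without a near peak. A ratio over 0.6 was found in 96 of the 201, in 719 of the 1741 annotated antisense windows and in 67 of the 694. Most annotated antisense windows over 0.6 were therefore near a peak under some name. The richness is not shown to be particular to the members. Each of the 201 is the window of the RefSeq start nearest to the start the annotation used. That start can be far from the member, by 455911 bp at HDAC2-AS2. The median of the 61 windows inside a peak was near that of coding genes, but the coding windows were not selected for a peak. Coding windows inside a peak were not measured.

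The motifs searched were the TATA box (TATAAA), the CCAAT box (CCAAT), the GC box (GGGCGG), the NRF1 motif (GCGCATGC), the ETS motif (CCGGAAG), the CRE (TGACGTCA), the E-box (CACGTG) and the AP-1 motif (TGANTCA). The others were the octamer (ATGCAAAT), the SOX motif (ACAAAG), the TEAD motif (GGAATG), the TFAP2 motif (GCCNNNGGC), the YY1 motif (AAGATGGC), the KLF motif (GGGTGTGG), the GRHL motif (AACCNGTT) and the GATA motif (AGATAA). A GC box stood in 42.8% of the 201 windows, in 59.0% of the 61 windows inside a peak and in 45.0% of all windows. A CCAAT box stood in 33.3%, against 34.6% of all windows. A TATA box stood in 5.47% (3.08 to 9.53), against 11.5% of all windows. The E-box was found in 12.9% (8.98 to 18.3), against 7.27% of all windows and 6.43% of all annotated antisense windows. In the 61 windows inside a peak its share was 14.8% (7.96 to 25.7). SOX, TEAD, TFAP2 and AP-1 motifs stood in 16.4%, 17.9%, 22.4% and 7.96% of the 201, against 16.1%, 14.0%, 23.2% and 7.68% of all windows. With 16 motifs looked at, some may stand apart by number alone, and no difference was tested. These shares are descriptions of letters in the windows, with Wilson 95% intervals that cover counting error only.

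The fold enrichment used from here on is the authors' own value for each peak over its background, and since read counts were not used here the depth behind it is unknown. Each value is compared only within its own list, mostly as a percentile among all peaks of that list. Members had a median fold enrichment of 4.49 and 4.44 in the first and the second list, at percentile 49.5 and 48.7. Promoter peaks of all other genes had medians at percentile 65.2 and 65.6. Coding genes stood at 70.6 and 71.0, and long intergenic (LINC) genes at 54.7 and 54.5. Genes without a symbol stood at 48.5 and 48.2, and other named genes outside these kinds at 48.2 and 51.3. Peaks of antisense genes were thus of about middle strength for the whole list, lower than those of coding genes and close to those of unnamed and other named genes. Their median width was 742 bp and 757 bp, against 933 bp and 979 bp for all other promoter peaks, but 740 bp and 774 bp for unnamed genes. Members above percentile 90 of a list numbered 44 (8.49%) in replicate 1 and 46 (8.35%) in replicate 2, against 16.8% of other promoter peaks in each.

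**Figure D1:**
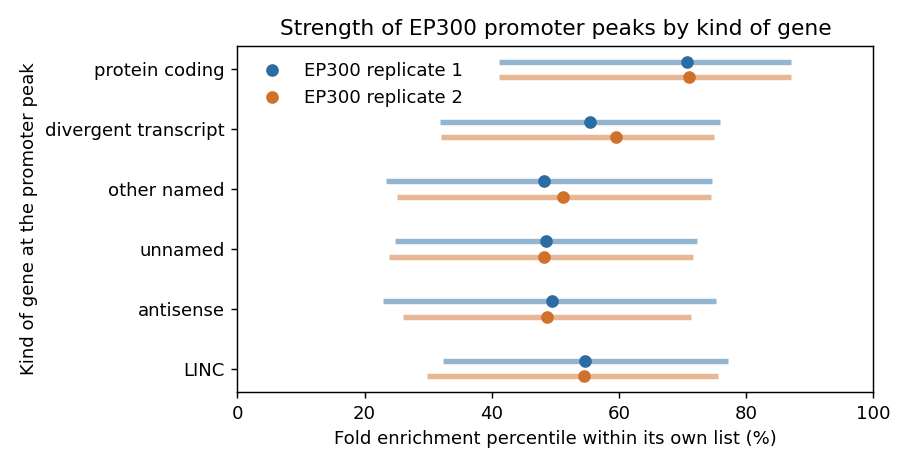
Strength of promoter peaks by kind of gene: the horizontal axis is the percentile of fold enrichment within the peak's own list, points are medians, bars run from percentile 25 to percentile 75 of the peaks of that kind, and colours mark the 2 EP300 replicates. The antisense medians lie at 49.5 and 48.7, below the coding medians of 70.6 and 71.0.

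Strength differed with the place of the peak relative to the start. Members that covered an antisense start numbered 216 (41.7%) in replicate 1 and 222 (40.3%) in replicate 2, whereas 68.0% and 69.0% of coding promoter peaks covered a start. Members on the start had median percentiles of 69.1 and 66.1, and members beside it 34.8 and 40.0. Coding peaks split the same way, at 80.3 and 80.1 on the start against 39.7 and 38.3 beside it. The summit lay within 250 bp of the start for 23.0% and 23.8% of members, against 31.9% and 32.3% of coding peaks. Its median distance from the start was 676 bp and 652 bp, against 347 bp and 349 bp for coding peaks. Many members are therefore peaks in the neighbourhood of an antisense start and not on it.

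At the outer edge of the rule, a BMP7-AS1 peak of replicate 2 lay at -2992 bp from its start with a fold enrichment of 5.28. An HDAC2-AS2 peak of replicate 1 stood at the same distance with 2.73. Just outside it, peaks named C5orf64-AS1 (replicate 2, 3001 bp, fold enrichment 4.58) and DLGAP1-AS1 (replicate 1, 3012 bp, 3.97) were left out. The values on the 2 sides of the edge overlap.

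Of the 518 members of replicate 1, 397 (76.6%, 72.8 to 80.1) overlapped a peak of replicate 2 by at least 1 bp, against 84.2% of all promoter peaks. Of the 551 members of replicate 2, 388 (70.4%, 66.5 to 74.1) overlapped a peak of replicate 1, against 83.3%. The shares of the members lie below this background in both directions, which count largely the same overlaps from each list. The intervals cover counting error only and take peaks as separate. Yet 103 genes in replicate 1 and 115 in replicate 2 had 2 or more members. Peaks of unnamed genes were found again at 75.3% and 74.5% and those of other named genes at 74.9% and 73.6%, so a low share was not particular to the antisense genes. The share followed strength: all 131 and all 119 members above percentile 75 were found again, whereas 50.7% and 40.8% of those up to percentile 25 were. Other promoter peaks were found again at 99.9% and 99.9% above percentile 75, and at 53.2% and 49.6% up to percentile 25. From percentile 50 to 75 the members stood at 91.2% and 90.6%, against 92.9% and 93.7% of other promoter peaks. From percentile 25 to 50 the members of replicate 2 stood at 52.9%, against 68.4% of other promoter peaks, and those of replicate 1 at 66.7% against 70.2%. Members on the antisense start were found again at 92.6% and 86.0%, and members beside it at 65.2% and 59.9%. Coding peaks split the same way, at 95.7% and 95.2% on the start and 70.2% and 68.3% beside it.

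By gene, 457 antisense genes had a member in at least 1 list and 293 in both. In 275 of the 293 the members overlapped, and in the other 18 the named peaks lay at different places. The strongest unmatched members were at RPS6KB2-AS1 (fold enrichment 6.08) and ANK2-AS1 (5.78) in replicate 1. In replicate 2 they were at TNFRSF14-AS1 (5.71) and F11-AS1 (5.29). TNFRSF14-AS1 also had members that both lists shared, so an unmatched peak is not an unmatched gene. Across the 275 genes the fold enrichment of the strongest member ranked alike in the 2 lists, with a Spearman correlation of 0.873 over genes, which are not replicates. The strongest members themselves overlapped in 247 of them.

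**Figure D2:**
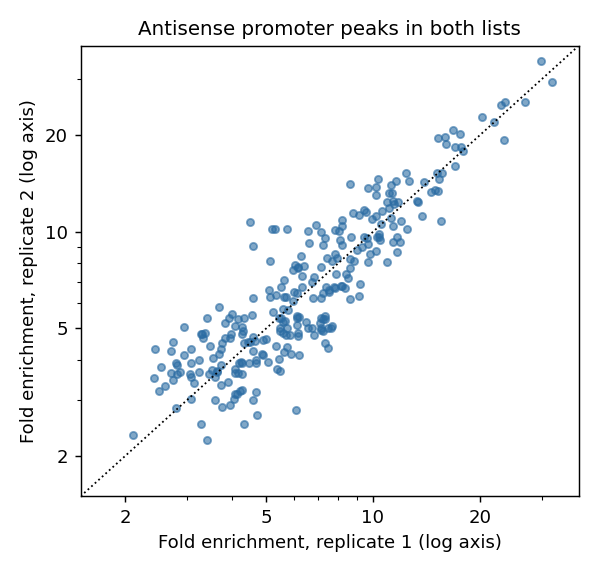
Fold enrichment of the strongest member of each of the 275 antisense genes in replicate 1 (horizontal) and replicate 2 (vertical), both on log axes, with the line of equal values dotted. The points follow the line, and their Spearman correlation is 0.873.

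The strongest members lay at the very top of their lists. ARHGAP31-AS1 had fold enrichments of 29.7 and 34.2 in the 2 lists, at chr3:119322272-119323945 in replicate 1, inside ARHGAP31, a gene for a GTPase-activating protein. AGBL5-AS1 had 32.0 and 29.4. NCKAP5-AS2 had 26.8 and 25.5. The lowest of these 6 values, that of NCKAP5-AS2 in replicate 2, lay at percentile 99.7. SNX10-AS1 followed with 23.6 and 25.4, and TCERG1L-AS1 with 23.0 and 24.9. ZNF22-AS1 had 22.0 in each list, SPART-AS1 20.3 and 22.8, and NR2F1-AS1 23.5 and 19.3. These 8 genes were the highest by their lower percentile over the replicates, and in each of them the strongest peak covered the antisense start in both lists.

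Most genes had 1 member, and some had a series of them. Single members were seen for 267 genes in replicate 1 and 265 in replicate 2, and 37 and 35 genes had 3 or more. SPRY4-AS1, antisense to a feedback inhibitor of receptor tyrosine kinase signalling, had 4 members in replicate 1 and 7 in replicate 2. The strongest of them, 4474 bp and 4543 bp wide, had fold enrichments of 11.4 and 10.4. ZMIZ1-AS1 had 4 and 5 members and SLC44A3-AS1 4 and 6. The strongest ZMIZ1-AS1 members lay at different places in the 2 lists. The widest member of all was at RNF157-AS1, antisense to a ubiquitin ligase gene, where a single region of 10782 bp with 10 summits in replicate 1 was matched in replicate 2 by a region of 7767 bp with 7 summits and a neighbour of 3581 bp with 3. All members of 1 gene share a locus and are not independent of each other.

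The sense gene could be placed on the same chromosome within 1 Mb for 265 of the 275 genes. Its starts came from the authors' annotation for 241 and from RefSeq for 24. For 9 genes, HSD17B1-AS1, SIX3-AS1 and CATIP-AS1 among them, the symbol before -AS was found in neither source on that chromosome. The nearest SRGAP2 start lies 84.8 Mb from SRGAP2-AS1. The antisense start lay inside the sense gene in 128 loci (48.3%), beyond its 3′ end in 70 (26.4%) and upstream in 34 (12.8%). It lay start to start, within 1 kb on the opposite strand, in 32 (12.1%, 8.68 to 16.5), against 34.4% of the 1310 annotated antisense genes in RefSeq with a placed sense gene. TUB-AS1 alone had the strand of its sense gene.

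The authors' annotation lists only transcripts that received a peak, so a start of the sense gene can be missing from it. With the RefSeq starts of the sense gene added, a choice made after seeing the data, 7 loci changed class and 39 of 265 (14.7%) were start to start. With RefSeq starts for both genes, the measure behind the 34.4%, 42 of 162 loci (25.9%, 19.8 to 33.2) were. SPART-AS1 is one of the loci that changed: by the authors' starts it lay 19808 bp from a SPART start, and by RefSeq 37 bp.

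Median percentiles of the strongest member lay between 60.7 and 76.0 in all 4 main arrangements. They were 76.0 and 70.8 beyond the 3′ end, 69.6 and 71.9 start to start, 73.5 and 60.7 upstream, and 65.5 and 61.9 inside. Start to start by the authors' starts, the highest were ZNF22-AS1, ZNF667-AS1 and PSMB8-AS1, antisense to 2 zinc finger genes and to a subunit gene of the immunoproteasome. ZNF667-AS1 had fold enrichments of 17.8 and 18.4, with its start 95 bp from that of ZNF667. PSMB8-AS1 had 17.0 and 16.0, with 31 bp between the starts. With RefSeq starts added, SPART-AS1 came after ZNF22-AS1 and before both of these. Beyond the 3′ end, LMCD1-AS1 (17.0 and 18.4) and BBOX1-AS1 (16.8 and 20.7) came after SNX10-AS1. BBOX1 encodes the last enzyme of carnitine synthesis.

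Many peaks on antisense starts were not named for the antisense gene. Of 1535 antisense genes with a start in RefSeq, 899 (58.6%, 56.1 to 61.0) had peaks of both lists within 3 kb, against 76.5% of coding genes, 30.3% of LINC genes and 93.0% of divergent transcript genes, which are named for a start shared with a partner. A peak covered the start in both lists for 599 (39.0%), against 63.3% of coding genes. Of those 599 starts, the peak carried the antisense name at 90 (15.0%), the sense name at 384 (64.1%) and another gene's name at 125 (20.9%). The annotation gives each peak 1 gene, and on RefSeq starts the antisense name was in the minority. Members are named from the authors' transcript starts, which can differ from those of RefSeq. By the authors' starts, 204 antisense genes in replicate 1 and 205 in replicate 2 had a member on the start.

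The names differed by place. Among 451 start to start genes, 329 (72.9%) had a peak on the antisense start, and the peak was named for the sense gene at 303 (92.1%) of these and for the antisense gene at 15. Among 604 genes that begin inside the sense gene, 97 (16.1%) had a peak on the start, of which 32 bore the antisense name and 45 the sense name. Among 219 that begin beyond the 3′ end, 90 (41.1%) had one. Of these, 24 bore the antisense name, none the sense name and 66 another gene's name, a coding gene in 50 of the 66. Most peaks on antisense starts beyond the 3′ end were thus named for a gene outside the pair.

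**Figure D3:**
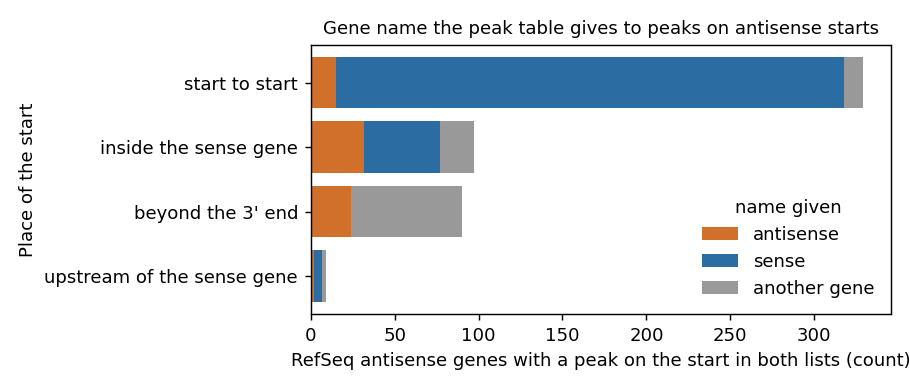
Gene name in the peak table for peaks that cover a RefSeq antisense start in both lists, by place of the start, as counts of genes on the horizontal axis and colours for the name given. At start to start genes 303 of 329 peaks carry the sense name.

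The share of antisense starts under a peak fell with the distance to the sense start. It was 76.7% (188 of 245) within 250 bp and 68.4% (141 of 206) from 250 bp to 1 kb. From 1 to 5 kb it was 36.7% (44 of 120), and from 5 to 20 kb 24.5% (39 of 159). It was 23.0% (73 of 318) from 20 to 100 kb and 15.4% (40 of 259) beyond 100 kb. The sense starts of the same genes changed less, from 81.6% within 250 bp to 65.3% beyond 100 kb. A peak wide enough to lie on both starts counts for each of them at short distances.

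**Figure D4:**
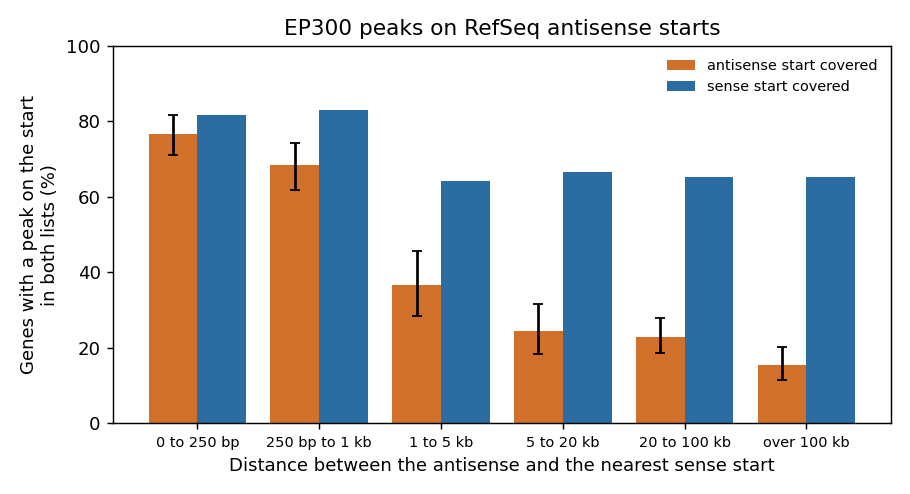
Share of RefSeq antisense genes with a peak on the antisense start (orange, with Wilson 95% intervals) and on a sense start (blue) in both lists, by distance between the 2 starts. The antisense share drops from 76.7% within 250 bp to 15.4% beyond 100 kb, while the sense share stays at or above 64.2%.

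In most member loci the sense gene had a promoter peak of its own. This held in both lists for 223 of 265 loci (84.2%, 79.3 to 88.1), against 67.4% of 19974 coding genes by name. The 2 shares are of different populations, since a member locus has at least 1 peak by the rule. The 9 genes whose sense symbol was not placed are outside the 265. They had no peak under that symbol on their chromosome, so leaving them out can only raise the share. It was seen in 112 of 128 loci inside the sense gene, 32 of 34 upstream, 56 of 70 beyond the 3′ end and 22 of 32 start to start. In 12 loci the sense gene had a promoter peak under its name in 1 list only, and in 30 in neither.

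With RefSeq starts added, the member itself covered a sense start in 7 of those 30 loci: CCDC39-AS1, PSMB8-AS1, SPART-AS1, TPBGL-AS1, ZNF22-AS1, ZNF667-AS1 and ZNF674-AS1. At ZNF22-AS1, for example, a region of 1311 bp at chr10:45000334-45001644 held both starts, 35 bp apart, and the table named it for the antisense gene alone. In 17 loci the sense gene had no promoter peak under its name in either list and no start within 1 kb of the member. Peaks elsewhere in the sense gene, or on its start under another name, were not counted. Among the 17 were NCKAP5-AS2 (26.8 and 25.5) and NR2F1-AS1 (23.5 and 19.3). They are antisense to NCKAP5 and to NR2F1, a nuclear receptor gene of neural and cardiac development. The NR2F1-AS1 start lies 12429 bp upstream of the nearest NR2F1 start, and the NCKAP5-AS2 start 302268 bp from that of NCKAP5. BBOX1-AS1, LAMP5-AS1, KRT10-AS1 and TRIM31-AS1 also belong to these 17.

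Where both genes had separate peaks, the sense peak was usually the stronger. In 143 of the 223 pairs (64.1%) the sense peak had the higher fold enrichment in both lists, and in 50 (22.4%, 17.4 to 28.3) the antisense peak did. In 30 the lists disagreed. Each peak bears 1 name, so a peak on the antisense start that is named for the sense gene counts here as a sense peak. Among loci with starts more than 1 kb apart, the antisense peak was higher in 43 of 201 (21.4%). Divergent transcript genes, a comparison added after seeing the data, had the higher peak in both lists in 23.9% of 67 pairs with their partner, which lies inside the interval of the antisense genes. The median fold enrichment was 5.85 and 5.38 for the antisense peaks, against 9.43 and 9.74 for the sense peaks. The median difference in percentile, antisense minus sense, was -14.0 in replicate 1 and -17.7 in replicate 2. The peaks of a pair lay a median of 29.8 kb and 30.2 kb apart.

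The strongest antisense and the strongest sense peak were each at the same place in both lists in 171 of the 223 pairs. Among those the antisense peak was higher in 33 (19.3%) and the sense peak in 116. By place, antisense was higher in 26 of 112 pairs inside the sense gene, 13 of 56 beyond the 3′ end, 4 of 32 upstream and 7 of 22 start to start. The strengths of the 2 peaks of a pair showed little relation: Pearson's r of the percentiles over the 223 loci was -0.0799 in replicate 1 and -0.0793 in replicate 2, and Spearman's coefficient -0.0667 and -0.0477. Loci share the list and its depth and are not replicates.

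**Figure D5:**
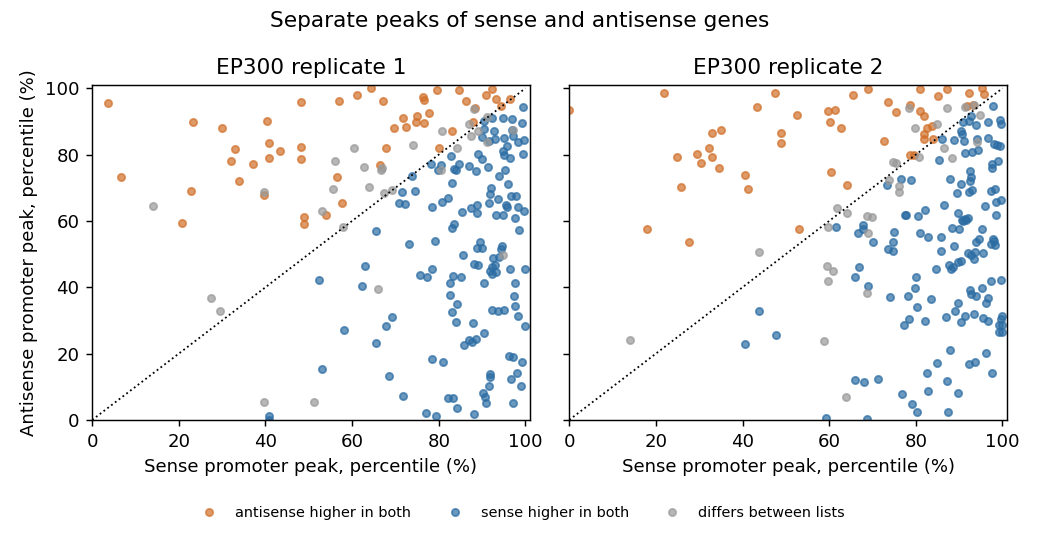
Percentile of the strongest antisense promoter peak (vertical) against that of the strongest sense promoter peak (horizontal) in 223 loci, 1 panel per replicate, with the line of equal percentiles dotted. In 143 loci the point lies below the line in both panels and in 50 above it in both.

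Pairs were ranked by the smaller of their percentile gaps in the 2 lists. Among those with the antisense peak higher, FAM83C-AS1 came first. Its peak had fold enrichments of 14.5 and 13.3, and that of FAM83C 2.60 and 2.03. NUTM2B-AS1 had 11.2 and 14.0, against 3.41 and 4.17 for NUTM2B. PLA2G4C-AS1 had 10.5 and 10.6, against 3.66 and 3.83 for the phospholipase gene PLA2G4C. The antisense peaks of these genes stood at percentile 87.5 or above, and their sense peaks at 43.3 or below. MIR1-1HG-AS1 (9.02 and 8.81, against 4.05 and 3.73) and DNAH17-AS1 (7.68 and 8.09, against 3.70 and 3.75), antisense to a microRNA host gene and to an axonemal dynein gene, had the same order. For PLA2G4C, MIR1-1HG and DNAH17 the strongest sense peak was not the same region in the 2 lists.

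By the same ranking PKP4-AS1 came first among pairs with the sense peak higher, with 2.60 and 3.31 against 9.22 and 15.7 for PKP4, a gene for a junction-associated armadillo protein. ADARB2-AS1 had 2.50 and 3.19, against 10.6 and 12.7 for ADARB2, of the RNA-editing deaminase family. RAI1-AS1 had 3.07 and 3.54, against 17.7 and 21.9 for RAI1. In these loci the antisense peak stood at percentile 26.4 or below and the sense peak at 84.2 or above in both lists. SLC25A21-AS1 (3.05 and 3.61, against 15.9 and 22.2) and PLCB2-AS1 (3.58 and 3.54, against 27.5 and 27.4) completed this group. The strongest PLCB2-AS1 members lay at different places in the 2 lists.

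The members were also grouped by what the sense gene is. Antisense genes of pluripotency regulators were few: 2 of them, OTX2-AS1 and TBX3-AS1, had members. OTX2 is a homeobox factor of the primed state and anterior identity, and TBX3 a T-box factor active in naive and early endodermal cells. OTX2-AS1 had fold enrichments of 8.17 and 9.09, and OTX2 itself 23.5 and 20.1. TBX3-AS1 had 4.08 and 3.64, and TBX3 11.6 and 8.83. The sense peak was the higher in both lists at both loci, as in 64.1% of all 223 pairs. RefSeq lists 5 antisense genes of this group with a start, and all 5 had peaks of both lists within 3 kb. Of all 1535 antisense genes with a RefSeq start, 58.6% had such peaks, so a count this small says little. The remaining 3 of the group were near peaks that bear other names.

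Developmental transcription factors formed the largest group, with 22 antisense genes in both lists. The size of a group depends on how many antisense genes its prefixes match. RefSeq lists 62 with a start here, 68 for transport and channel genes and 57 for zinc finger genes. Of the 62, 62.9% had peaks of both lists within 3 kb, against 58.6% of all 1535 antisense genes. By its prefix rule the group also took in PAXIP1-AS2, whose sense gene is not a PAX factor. Of its 21 pairs, 13 had the sense peak higher and 4 the antisense peak, against 64.1% and 22.4% of all 223 pairs. The 4, looked up after the count, were FOXD3-AS1, NKX2-2-AS1, PAX8-AS1 and WT1-AS. FOXD3-AS1 had 14.0 and 14.3, against 13.7 and 12.4 for FOXD3, a forkhead factor of early epiblast and neural crest, and the peaks lay within 310 bp of each other. SOX21-AS1 had 13.3 and 12.5 against 10.5 and 14.4 for SOX21, so that the order changed between the lists. SATB1-AS1 had 9.12 and 11.3 against 11.8 and 9.64 for SATB1, with the same change.

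Of the 8 antisense genes of signalling genes in both lists, 7 had the sense peak higher in both and none the antisense peak. Over all 223 pairs these shares were 64.1% and 22.4%. FZD10-AS1, named after the count, was the one in which the lists disagreed. SPRY4-AS1 came closest to its sense gene, with 11.4 and 10.4 against 11.6 and 11.8. EPHA2-AS1 had 8.17 and 6.79, against 10.9 and 10.7 for the ephrin receptor gene EPHA2. FGF12-AS2 had 4.61 and 4.71, against 13.9 and 17.2 for FGF12. BMP7-AS1, antisense to a bone morphogenetic protein gene, had 3.68 and 5.85 against 18.6 and 24.2. The median percentile of these 8 genes was 42.6 and 57.4, against 69.3 and 68.3 over all 275.

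Zinc finger genes gave 13 antisense genes in both lists, with median percentiles of 75.8 and 79.8. ZNF22-AS1 and ZNF667-AS1 led them, and ZNF385D-AS1 (9.44 and 11.7, against 12.8 and 12.8 for ZNF385D) came next. The sense peak was higher in 5 of their 7 pairs, against 64.1% of all 223 pairs. Transport and channel genes gave 13, with medians of 73.3 and 69.0. Of their 68 antisense genes with a RefSeq start, 39.7% had peaks of both lists within 3 kb, against 58.6% of all 1535. The sense peak was higher in 6 of their 10 pairs and the antisense peak in 2, against 64.1% and 22.4% of all 223 pairs. Those 2 were CACNA1C-AS1 and KCNQ1-AS1. CACNA1C-AS1, antisense to a gene of the L-type calcium channel, had 18.0 and 17.9 against 11.7 and 9.74, and the strongest CACNA1C peak differed between the lists. KCNQ1-AS1, at the potassium channel gene KCNQ1, had 15.0 and 13.5 against 4.39 and 5.34.

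Ubiquitin genes gave 4, and in both of their pairs the antisense peak was higher, against 22.4% of all 223 pairs. RNF157-AS1 had 16.1 and 18.8 against 15.7 and 15.3, and USP3-AS1 15.3 and 14.6 against 9.89 and 13.2 for the deubiquitinase gene USP3. RNA and translation genes gave MRPL20-AS1 (8.01 and 10.1, against 8.85 and 11.9 for the mitochondrial ribosomal protein gene MRPL20) and RPS6KA2-AS1 (5.48 and 3.68, against 25.8 and 27.0), the latter by prefix only, since RPS6KA2 encodes a kinase. The chromatin group gave HDAC2-AS2, with 2.94 and 4.15 at 2 different places against 20.1 and 26.0 for the histone deacetylase gene HDAC2. No antisense gene of the metabolism list had overlapping members in both lists. Groups of this size are descriptions, and no difference between them was tested.

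As a check of the label, all 14 naive and shared pluripotency genes looked up had a promoter peak in both lists, as did 67.4% of all coding genes. So did 5 of 8 fibroblast genes, looked up for the feeder layer, a share near that of all coding genes, while COL3A1, DCN and LUM had none. A promoter peak is common enough that this is a weak check. The feeders are mouse cells and the peaks lie on the human genome, so the fibroblast look-up cannot decide whether feeders were present. The part of feeder cells in any member was not tested.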

How the data were processed

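EP300 was measured by ChIP-seq in 2 samples of naive H9 cells. Per the submitters' processing notes, GRCh38 and fastp 0.19.11 were used. Neither the aligner nor the peak caller nor its threshold is given in the sources used here. Each deposited table holds the peaks of 1 sample called against input, with ChIPseeker annotation per the names of the tables. The authors give each summit a fold enrichment, which is a ratio over background, and −log10 p-values and q-values. The deposited score column, which was not used, is the q-value rescaled.

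Rows with the same interval on chromosomes 1 to 22 and X were joined, keeping the highest fold enrichment, and percentiles were ranked within a list. Python 3.11.15, pandas 2.3.3, numpy 2.4.6, scipy 1.17.1 and matplotlib 3.10.9 were used. A sense gene is the symbol before -AS, and the strongest peak of each gene was compared within a list. Starts, windows and gene types came from RefSeq tables of GRCh38.p14. Intervals of shares are Wilson 95% intervals and cover counting error only. There is 1 group, so no test was made and no p-value is given, and peaks and genes are not replicates. Read depth is unknown because the files hold no counts.

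Named genes are the 8 highest by lower percentile, the 5 widest sense and antisense differences in each direction, the 3 with most members, the 2 strongest unmatched members per list, the 3 highest per arrangement and sense group, members of the pluripotency group, the 3 widest members and those at the 3 kb edge, and 1 of them is not reported here. Members, lists and rules were chosen with earlier results of these data known. The alternatives were a stricter q-value or fold enrichment, a 50% overlap, promoters within 1 kb, the mean over summits, other distances and each replicate alone. The scripts were tested on simulated data.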

Additional observations from a re-analysis of the deposited data

How the results depend on the processing

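Of 54 alternative values of the main results, 19 moved: past the interval or replicate SD of the value reported or, for the gene count, by over 1.5 times. The gene count of 275 fell to 206, 243 and 228 under the q-value, overlap and 1 kb alternatives. Requiring −log10 q of at least 5 moved the mean share of members found in the other replicate from 73.5% to 80.6%, the mean of the median percentiles from 49.1 to 45.3, loci with a sense promoter peak from 84.2% to 74.6% and occupied antisense starts from 58.6% to 53.4%. A fold enrichment of at least 5 gave 85.1%, 47.5, 59.7% and 46.8% for these, and left 158 genes in place of 275. An overlap of 50% gave 59.9% found again and 54.9% of starts occupied. Promoters within 1 kb gave 79.7% found again, a percentile of 56.7 and 55.3% of starts occupied. A window of 1 kb gave 52.3% of starts. Taking any peak within 3 kb of a sense start gave a sense peak in 90.9%. Start to start loci were 6.79% at 500 bp and 26.0% at 3 kb in place of 12.1% at 1 kb, and 14.7% with RefSeq starts added.

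With 1 replicate left out at a time, genes ranged from 370 to 380, occupied starts from 61.0% to 61.8%, sense peaks from 86.6% to 88.0%, start to start loci from 12.8% to 14.6% and pairs with the antisense peak higher from 22.1% to 28.0%. The first counts genes of a single list, so no overlap is asked for. Members stayed below other promoter peaks in the share found again and in median percentile, in both lists, under a stricter q-value or fold enrichment and with promoters within 1 kb. The gap in replicate 2 narrowed with strength. There 70.4% of members were found again against 83.6% of other promoter peaks, and 85.8% against 88.7% at a fold enrichment of at least 5. In replicate 1 the shares were 76.6% against 84.3%, and 84.3% against 90.6%. A 50% overlap kept the order of the shares, and the mean over summits that of the percentiles. No paired analysis was possible because the series has 1 group with peak lists. Lower percentiles of named genes moved by more than 1 SD of the 2 lists in 161 of 315 cases, which holds by construction where the lower list is left out.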
